A study of Mus musculus with 35 samples.

Results

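The genes described are 9 regulators of the turnover of the c-Myc protein, namely the ubiquitin ligase components Fbxw7, Skp2, Huwe1 and Stub1, the deubiquitinases Usp28 and Usp36, the kinases Gsk3a and Gsk3b and the phosphatase subunit Ppp2r5a. They were taken by symbol from a list; its rule uses no measured value, but it was drawn up with earlier results of these data known. All 9 were among the 48709 genes of the count tables and passed the filter on low counts, which kept 13819 genes. The cells were OT-I CTLs, cytotoxic CD8+ T cells grown from the spleens of mice whose T cells carry a transgenic receptor for an ovalbumin peptide, purified as CD8+ cells by negative selection, primed with antibodies to CD3 and CD28 and expanded with IL-2. Sequencing covered 35 libraries in 7 groups of 5 biological replicates, with the replicate numbers 1 to 5 occurring in each group. The first group was taken at 0 h, before the change of medium. The other 6 groups were taken after 24 h in medium at pH 7.4, pH 7 or pH 6.6 (acidified with HCl), either without IL-2 or with 200 IU/mL of murine IL-2. All groups share the transgenic receptor and the earlier expansion in IL-2, so the groups without IL-2 are cells from which IL-2 was withdrawn, and ages and sexes of the mice are not given in the labels.

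c-Myc is a short-lived transcription factor that drives growth and division of activated T cells, and its amount is set by how fast it is made and how fast it is destroyed. In the best known route of destruction, GSK3 kinases phosphorylate c-Myc close to a serine that was phosphorylated earlier, the phosphatase PP2A with the B56alpha subunit encoded by Ppp2r5a removes the earlier phosphate, and the F-box protein Fbxw7 then recruits an SCF ubiquitin ligase that sends c-Myc to the proteasome. Other ligases and deubiquitinases add to or oppose this route. The study asked whether low pH changes the stability of the c-Myc protein in CTLs, and it reported a shorter half-life. It also reported less Myc mRNA at low pH. It attributed the fall in c-Myc to both lower transcription and more degradation by the proteasome. Because forced expression of c-Myc restored its level, the study proposes a major role for the mRNA, without excluding the shorter half-life. The phosphorylation ratio of c-Myc was unaltered there, GSK3 inhibition did not raise c-Myc, and proteasome inhibition did. Those assays were shorter than the 24 h of culture sampled here. The libraries hold only transcripts, so what follows concerns the mRNA of the regulators and says nothing of their protein or activity.

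The total count on genes lay between 16721319 and 34033340 per library (median 24730020). The row for reads aligned to more than one place, which were not counted on a gene, held 32.8% to 48.3% of the tabulated counts. The 6 markers fixed for CD8+ T cells (Cd8a, Cd8b1, Cd3e, Cd3g, Gzmb and Prf1) summed to 1970 to 12700 CPM (counts relative to library size) over the libraries, from 9070 to 11700 at pH 7.4 with IL-2, 2630 to 3970 at pH 6.6 with IL-2, 2380 to 2750 at pH 7.4 without IL-2 and 1970 to 2300 at pH 6.6 without IL-2. The lower sum at pH 6.6 with IL-2 was that of the cytotoxic effectors Gzmb (mean 7796 CPM at pH 7.4 and 845 at pH 6.6) and Prf1 (380 and 92.7). None of the 4 lineage markers was called lower there, with means of 938 and 1046 CPM for Cd8a, 255 and 270.3 for Cd8b1, 411 and 581 for Cd3e and 538 and 536 for Cd3g. The markers of B cells (3 genes) summed to at most 0.381 CPM with Ms4a1 at 0 throughout, those of CD4+ T cells (Cd4 and Foxp3) to at most 5.5 CPM and those of myeloid cells (4 genes) to at most 3.93 CPM. Of the NK cell markers, Ncr1 was at most 0.0694 CPM in any library, so their sum was that of Klrb1c. It was 83.4 to 95 CPM at 0 h, 43.0 to 45.8 at pH 7.4 and 19.3 to 33.2 at pH 6.6 with IL-2, and 20.6 to 40.8 and 8.27 to 12.1 at those pH values without IL-2. Gzmb, Prf1 and Klrb1c moved with the groups, as several regulators did, and their part in the results below was not tested. All levels are shares of the counted RNA, so fewer cells of one kind and less RNA per cell cannot be told apart.

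Levels below are CPM after TMM scaling. Fold changes are log2 values from one edgeR quasi-likelihood fit of all 35 libraries, with the replicate number as a block. Their standard errors (SE) were calculated from the test, as the absolute log2 fold change divided by the square root of its F statistic. A gene was called higher or lower where the p-value, adjusted by the Benjamini-Hochberg method over the 13819 genes, was under 0.05. When pH 6.6 was compared with pH 7.4 in the presence of IL-2, 8 of the 9 regulators were called, 4 higher and 4 lower, while 76.3% of all genes tested were called (35.4% higher and 40.9% lower). Without IL-2 the same pH step gave 4 calls among the 9, against 67.0% of all genes. Between pH 7 and pH 7.4 none of the 9 was called, either with IL-2 (19% of all genes called) or without it (1.68%); 4389 and 1124 of the 13819 genes had an unadjusted p under 0.05 in these comparisons, none of the regulators was called in DESeq2, and with total count scaling Usp28 alone was called at pH 7 with IL-2 (log2 fold change 0.17). IL-2 compared with no IL-2 gave 8 calls at pH 7.4 (80.4% of all genes), 8 at pH 7 (77.2%) and 3 at pH 6.6 (23.7%). The interaction, which tests whether the effect of pH 6.6 differs with and without IL-2, was called for 6 of the 9, against 67.0% of all genes. Relative to 0 h, 3 regulators were called after 24 h at pH 7.4 with IL-2 (59.9% of all genes) and 7 after 24 h at pH 7.4 without it (75.2%). Read against these shares, the counts of calls do not set the 9 genes apart from genes in general, and what follows is which of them moved, in which direction and how far. Comparisons that use the same pH 7.4 libraries are not independent of each other.

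**Figure D1:**
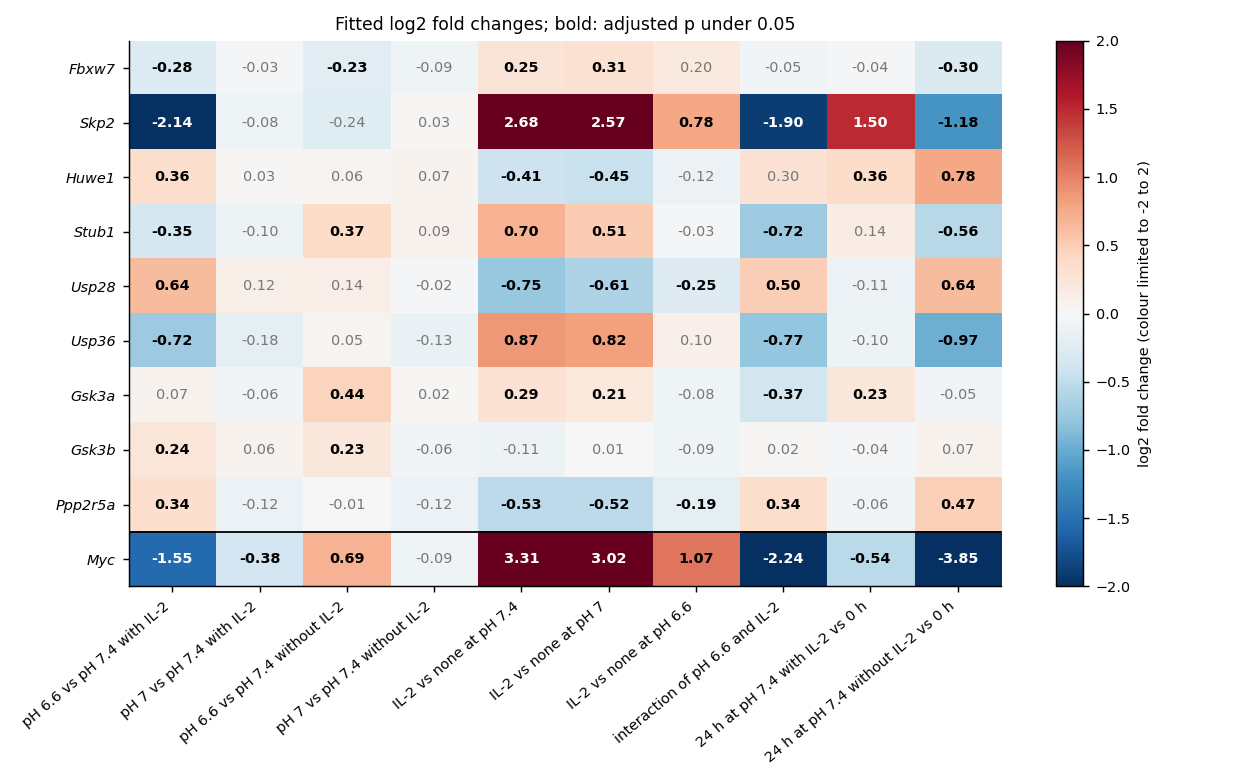
Log2 fold changes of the 9 regulators and of Myc (rows) in the 10 comparisons (columns) from the fit of all 35 libraries, with bold numbers for an adjusted p under 0.05 and colours limited to -2 to 2. Skp2 has the widest span, from -2.14 to 2.68, and neither pH 7 column holds a bold number among the 9 regulators.

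Levels can be compared between genes only per length, for which CPM was divided by the kilobases of annotated exon (RPKM). At pH 7.4 with IL-2, Gsk3a was the most abundant regulator with 44.6 ± 2.31 RPKM (SD, n = 5). Stub1 (25.1 ± 1.73), Ppp2r5a (23.7 ± 0.652) and Huwe1 (23 ± 2.18) followed, with overlapping ranges. Gsk3b (11.2 ± 1.31) and Usp36 (9.67 ± 0.659) overlapped as well, and Fbxw7 (7.92 ± 0.396), Usp28 (4.78 ± 0.542) and Skp2 (2.63 ± 0.355) each lay apart from their neighbours. At pH 6.6 with IL-2 the order below Gsk3a was Ppp2r5a (29.9 ± 3.22), Huwe1 (29.4 ± 2.27), Stub1 (19.6 ± 1.12) and Gsk3b (13.3 ± 1.34), and then Usp28 (7.42 ± 0.567), Fbxw7 (6.54 ± 0.371) and Usp36 (5.85 ± 0.276), whose neighbouring ranges overlapped. Usp28 thus ranked below Fbxw7 and Usp36 in RPKM at pH 7.4 with IL-2 and above both at pH 6.6 with IL-2. Skp2 stood last in all 7 groups, down to 0.346 ± 0.132 RPKM at pH 6.6 without IL-2.

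**Figure D2:**
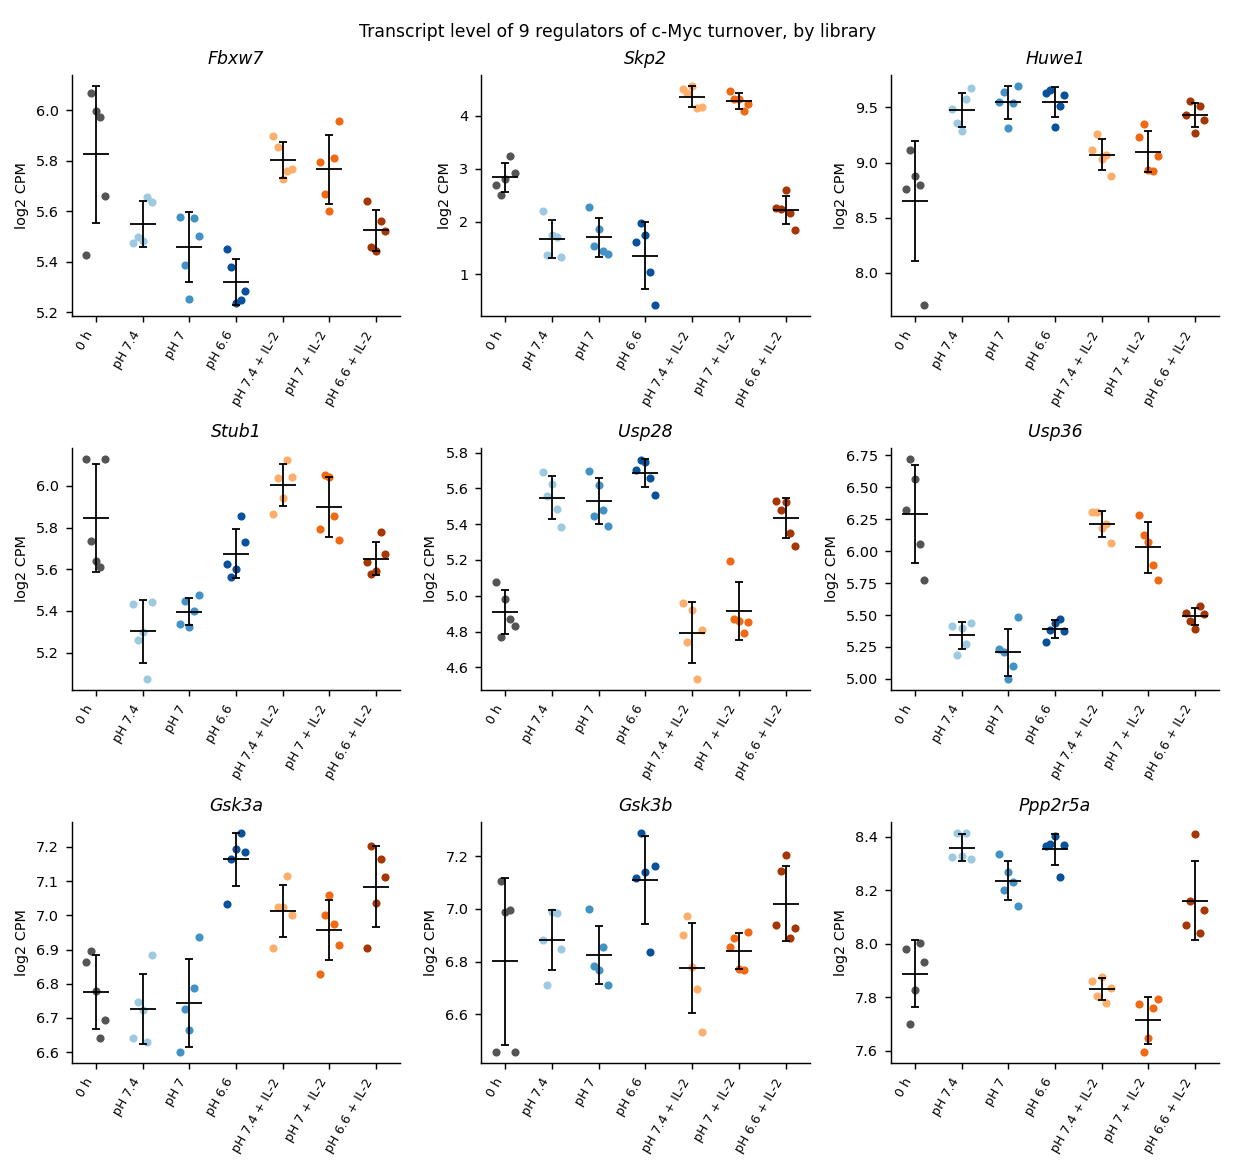
TMM-scaled log2 CPM of each regulator (vertical axes, which do not start at 0 and differ between panels) in the 7 groups, with 1 point per library and the mean ± SD (n = 5) as a bar. Skp2, Usp36 and Stub1 were higher with IL-2 at pH 7.4 and pH 7 than in the same medium without it, Usp28 and Ppp2r5a were lower, and at pH 6.6 the groups with and without IL-2 lay closer together.

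Skp2 is the F-box protein of another SCF ligase, which can ubiquitinate c-Myc and is best known for the destruction of the cell cycle inhibitor p27. It lies at chr15:9111985-9155425 on the minus strand (GRCm38) and showed the widest changes of the 9. At pH 7.4 with IL-2 its level was 22.7, 21.5, 23.7, 17.7 and 17.8 CPM in replicates 1 to 5, and at pH 7 with IL-2 it was 22.2, 19.9, 19.8, 16.9 and 18.6 CPM. At pH 6.6 with IL-2 it was 4.74, 4.68, 6.0, 4.48 and 3.58 CPM, so that every library at pH 6.6 lay below every library at the higher pH values. The fall between pH 7.4 and pH 6.6 was 2.14 ± 0.17 (SE) on the log2 scale, a 4.40-fold difference (edgeR adjusted p = 2.43e-13), and was larger in size than the changes of 92.2% of the genes tested. For the other regulators this share ran only from 5.6% (Gsk3a) to 50.8% (Usp36) in that comparison. The median absolute log2 fold change over all genes was 0.705.

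Without IL-2, Skp2 was low at each pH. It was 4.56, 2.55, 3.35, 3.25 and 2.48 CPM at pH 7.4, and 4.83, 2.88, 3.61, 2.71 and 2.61 CPM at pH 7. At pH 6.6 without IL-2 it was 3.03, 3.92, 3.32, 2.05 and 1.31 CPM, which overlapped both of these groups. The difference from pH 7.4 to pH 6.6 was -0.24 ± 0.19 without IL-2 and did not pass the test (edgeR adjusted p = 0.264), although without replicate 2 it was -0.53 (edgeR adjusted p = 0.0232). The interaction, -1.90 ± 0.25, was called (edgeR adjusted p = 5.92e-08).

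IL-2 raised Skp2 by 2.68 ± 0.17 at pH 7.4 (6.39-fold), by 2.57 ± 0.17 at pH 7 and by 0.78 ± 0.18 at pH 6.6, with 5 of 5 replicate pairs higher at each pH; at pH 6.6 the ranges with and without IL-2 overlapped. At 0 h Skp2 was 6.46, 5.68, 7.0, 9.44 and 7.49 CPM. It rose from there by 1.5 ± 0.16 with IL-2 at pH 7.4 and fell by 1.18 ± 0.17 without IL-2.

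Skp2 is known to be transcribed in step with the cell cycle, and 10 cell cycle genes were set beside it. Among them were Mki67, Top2a, Cdk1, Ccna2, Ccnb1, Mcm2 and Tyms. Their mean log2 CPM was 8.78 ± 0.08 (SD, n = 5) at pH 7.4, 8.57 ± 0.12 at pH 7 and 6.44 ± 0.15 at pH 6.6 with IL-2. All 10 were lower at pH 6.6 compared with pH 7.4 with IL-2 (median log2 fold change -2.32), against 40.9% of all genes. Without IL-2, 8 of the 10 went the opposite way and were higher at pH 6.6, and 1 (Tyms) was lower. The shares of all genes there were 31.6% higher and 35.4% lower. The median of the 10 was 1.69, and their mean log2 CPM was 4.30 ± 0.27 at pH 7.4, 4.84 ± 0.35 at pH 7 and 5.79 ± 0.32 at pH 6.6. Skp2 and these genes therefore both fell at low pH with IL-2. At low pH without IL-2, 8 of the 10 were higher, Tyms was lower and Skp2 was not called. How far Skp2 follows the share of dividing cells was not tested.

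**Figure D3:**
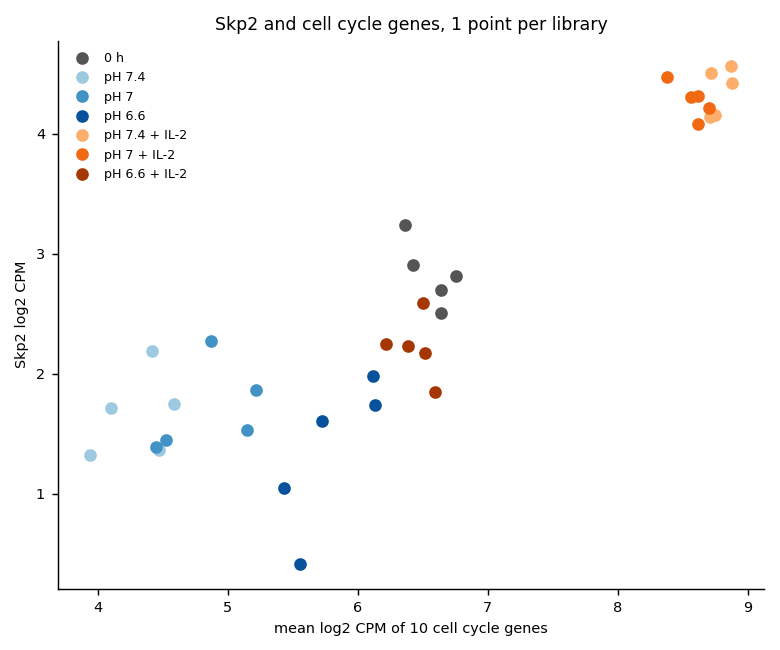
Skp2 log2 CPM (vertical) against the mean log2 CPM of 10 cell cycle genes (horizontal), with 1 point per library and a colour for each of the 7 groups. The libraries at pH 7.4 and pH 7 with IL-2 lie at the upper right, and those at pH 6.6 without IL-2 lie to the right of those at pH 7.4 without IL-2 (mean 5.79 against 4.30) but no higher in Skp2 (1.36 ± 0.63 against 1.67 ± 0.35).

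RefSeq (GRCm38.p6) gives Skp2 2 start sites. The 250 bases before each are printed, with those before the start of Usp36, because these were the regulators that fell most at pH 6.6 with IL-2. Capitals mark matches, on either strand, to the motifs searched in the upstream windows of all 9 genes: CACGTG (E-box), TTCNNNGAA (STAT5-type site), TGACGTCA (CRE), and TTTGGCGC, TTTCGCGC, TTTCCCGC or TTTGCCGC (E2F site); no 2 matches overlapped.

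Skp2, chr15:9155426-9155675, minus strand: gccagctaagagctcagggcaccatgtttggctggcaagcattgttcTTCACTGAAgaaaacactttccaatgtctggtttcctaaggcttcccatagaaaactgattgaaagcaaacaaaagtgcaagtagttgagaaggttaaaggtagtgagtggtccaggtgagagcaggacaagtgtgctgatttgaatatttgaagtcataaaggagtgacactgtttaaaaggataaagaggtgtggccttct
Skp2, chr15:9140455-9140704, minus strand: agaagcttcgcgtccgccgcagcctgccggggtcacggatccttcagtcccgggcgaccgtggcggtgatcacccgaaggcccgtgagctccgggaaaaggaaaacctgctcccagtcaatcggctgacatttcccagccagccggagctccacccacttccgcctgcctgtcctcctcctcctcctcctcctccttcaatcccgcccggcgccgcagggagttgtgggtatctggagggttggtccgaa
Usp36, chr11:118290245-118290494, minus strand: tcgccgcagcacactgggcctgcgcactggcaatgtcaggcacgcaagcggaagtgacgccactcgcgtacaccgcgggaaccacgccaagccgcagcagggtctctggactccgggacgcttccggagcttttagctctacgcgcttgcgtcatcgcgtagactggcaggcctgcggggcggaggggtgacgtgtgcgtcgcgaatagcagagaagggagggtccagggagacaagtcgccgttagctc

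The outer Skp2 window was 42.8% G and C with 0 CG dinucleotides and held 1 TTCNNNGAA match, which ended 194 bases before the start. The inner Skp2 window was 65.6% G and C with 21 CG dinucleotides, the Usp36 window was 65.6% with 28, and neither held a match. Among the other regulators, the window of Stub1 held 1 E-box, that of Huwe1 1 TTCNNNGAA and that of Ppp2r5a 1 E2F site, and the windows of Fbxw7 (3 starts), Usp28, Gsk3a and Gsk3b held none. Of the 32851 windows of the same length in RefSeq, 6.02% held an E-box, 7.02% a TTCNNNGAA, 1.86% an E2F site and 1.55% a CRE. A match describes letters only, and which start the CTLs use cannot be read from counts per gene.

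Fbxw7 (chr3:84815268-84979198, plus strand) encodes the F-box protein that recognizes phosphorylated c-Myc, and its changes were small. With IL-2 it was 59.7, 57.8, 53.0, 54.2 and 54.5 CPM at pH 7.4 and 49.9, 43.9, 43.5, 47.2 and 45.9 CPM at pH 6.6, with no overlap. Without IL-2 it was 44.5, 45.2, 44.6, 50.4 and 49.7 CPM at pH 7.4 and 43.7, 41.6, 37.8, 38.0 and 38.9 CPM at pH 6.6, again with no overlap. Low pH thus went with less Fbxw7 transcript in both media, by 1.21-fold with IL-2 (log2 fold change -0.28 ± 0.09, edgeR adjusted p = 0.00634) and by 1.17-fold without it (-0.23 ± 0.09, edgeR adjusted p = 0.0274). The call with IL-2 was lost without replicate 2 (-0.18), and the call without IL-2 was lost with RLE scaling or DESeq2 (-0.19 in both) and without replicate 3, 4 or 5. The interaction was -0.05 ± 0.13 (edgeR adjusted p = 0.741), with an interval of 2 SE from -0.31 to 0.21.

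IL-2 raised Fbxw7 by 0.25 ± 0.09 at pH 7.4 and 0.31 ± 0.09 at pH 7, and the difference at pH 6.6, 0.20 ± 0.09, was not called (edgeR adjusted p = 0.104). With total count scaling these were 0.09, 0.19 and 0.27, of which only the value at pH 6.6 was called. At 0 h Fbxw7 ranged from 43.0 to 67.1 CPM, and the 0 h libraries overlapped both pH 7.4 groups.

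Huwe1 (chrX:151800807-151935417, plus strand), a large HECT-domain ligase with c-Myc among its substrates, was higher at low pH with IL-2. It was 554, 614, 525, 538 and 472 CPM at pH 7.4 with IL-2 and 688, 754, 618, 731 and 670 CPM at pH 6.6 with IL-2, with no overlap. The rise was 0.36 ± 0.13 (edgeR adjusted p = 0.0147), and without replicate 4 it was 0.34 and not called (edgeR adjusted p = 0.0619). Without IL-2 it lay between 624 and 831 CPM at the 3 pH values, in overlapping ranges, with a difference of 0.06 ± 0.13 from pH 7.4 to pH 6.6.

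IL-2 went with less Huwe1 at pH 7.4 (-0.41 ± 0.13) and pH 7 (-0.45 ± 0.13), and the difference at pH 6.6 was -0.12 ± 0.13 (edgeR adjusted p = 0.554). The interaction was not called (0.30 ± 0.19, edgeR adjusted p = 0.159), but it was called with total count scaling (0.52) and when only the compared groups were fitted (0.39). At 0 h Huwe1 was 433, 555, 470, 445 and 208 CPM. Replicate 5, the low one, also had the highest share of counts in the row for reads aligned to several places, 48.3%. The rise from 0 h was 0.36 ± 0.13 with IL-2 and 0.78 ± 0.13 without it at pH 7.4. With total count scaling the rise with IL-2 was 0.29 and not called (edgeR adjusted p = 0.0675).

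Stub1 (chr17:25830505-25833404, minus strand) encodes CHIP, a ligase that works with heat shock chaperones and can ubiquitinate c-Myc. Its response to low pH had opposite directions with and without IL-2. With IL-2 it was 58.2, 65.8, 61.5, 69.7 and 66 CPM at pH 7.4 and 49.7, 47.7, 48.2, 54.9 and 51.0 CPM at pH 6.6, and without IL-2 it was 43.2, 38.3, 39.3, 33.7 and 43.5 CPM at pH 7.4 and 49.3, 47.3, 48.5, 57.9 and 53.1 CPM at pH 6.6. All 5 libraries fell with IL-2 and all 5 rose without it, and the pH groups did not overlap in either case. The log2 fold changes were -0.35 ± 0.09 with IL-2 (edgeR adjusted p = 0.00101) and 0.37 ± 0.09 without it (edgeR adjusted p = 0.00084), and the interaction was -0.72 ± 0.13 (edgeR adjusted p = 1.44e-05).

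At pH 6.6 the libraries with and without IL-2 overlapped (-0.03 ± 0.09), whereas IL-2 raised Stub1 by 0.70 ± 0.09 at pH 7.4 and 0.51 ± 0.09 at pH 7. Of the exon bases of Stub1, 42.3% lie opposite exons of Jmjd8, and the strand setting of the counting is not given, so reads of the pair may not be fully separated. Jmjd8 itself changed by -0.21 ± 0.11 at low pH with IL-2 (edgeR adjusted p = 0.0807) and by -0.25 ± 0.11 without IL-2 (edgeR adjusted p = 0.0432), the latter against the direction of Stub1.

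Usp28 (chr9:48985375-49042517, plus strand) is a deubiquitinase that can act through Fbxw7 to stabilize c-Myc, and Usp36 (chr11:118259651-118290244, minus strand) is a nucleolar deubiquitinase that does so as well; their transcripts moved in opposite directions. With IL-2, Usp28 was 31.2, 26.8, 30.3, 23.2 and 28 CPM at pH 7.4 and 46.2, 44.6, 46.0, 40.8 and 38.8 CPM at pH 6.6. Usp36 was 79.2, 79.0, 72.5, 74.1 and 67.0 CPM at pH 7.4 and 45.8, 43.9, 42.0, 47.6 and 45.6 CPM at pH 6.6. Neither gene's groups overlapped, and low pH with IL-2 raised Usp28 by 0.64 ± 0.06 (1.55-fold, edgeR adjusted p = 1.01e-10) and lowered Usp36 by 0.72 ± 0.12 on the log2 scale (1.65-fold, edgeR adjusted p = 1.09e-06).

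Without IL-2 neither gene was called across pH. Usp28 was 51.7, 47.0, 49.4, 44.7 and 41.7 CPM at pH 7.4 and 52.1, 54.0, 53.7, 50.4 and 47.3 CPM at pH 6.6, higher in 5 of 5 pairs but with overlapping ranges. Its difference of 0.14 ± 0.06 just missed the threshold (edgeR adjusted p = 0.0517) and passed it with RLE scaling and in DESeq2 (0.18 in both), whereas it was -0.02 with total count scaling. Usp36 was 42.6, 36.3, 42.1, 38.7 and 43.2 CPM at pH 7.4 and 39.0, 41.7, 43.3, 44.2 and 41.5 CPM at pH 6.6, a difference of 0.05 ± 0.12 (edgeR adjusted p = 0.726). The interaction was called for Usp28 (0.50 ± 0.09, edgeR adjusted p = 1.15e-05) and for Usp36 (-0.77 ± 0.16, edgeR adjusted p = 1.08e-04).

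IL-2 lowered Usp28 at each pH, by 0.75 ± 0.06, 0.61 ± 0.06 and 0.25 ± 0.06 on the log2 scale at pH 7.4, pH 7 and pH 6.6, while it raised Usp36 by 0.87 ± 0.11 and 0.82 ± 0.11 at pH 7.4 and pH 7, with 0.10 ± 0.12 at pH 6.6 (edgeR adjusted p = 0.57). At 0 h Usp28 was between 27.3 and 33.8 CPM, close to its level with IL-2 at pH 7.4 (-0.11 ± 0.06, edgeR adjusted p = 0.134), and Usp36 varied from 54.7 to 105.5 CPM. After 24 h at pH 7.4 without IL-2, Usp28 was 0.64 ± 0.06 higher and Usp36 0.97 ± 0.12 lower than at 0 h on the log2 scale.

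The GSK3 kinases, which phosphorylate c-Myc for recognition by Fbxw7, changed little in comparison with Skp2. Gsk3a (chr7:25228258-25237851, minus strand) was 120, 130, 130, 139 and 128 CPM at pH 7.4 with IL-2 and 120, 147, 131, 144 and 138 CPM at pH 6.6 with IL-2. These groups overlapped, and the difference of 0.07 ± 0.07 was not called (edgeR adjusted p = 0.322), although it was called in DESeq2 (0.13) and when only those groups were fitted (0.15). Without IL-2 it was 99.8, 107, 106, 99.0 and 118 CPM at pH 7.4 and 131, 144, 146, 151 and 146 CPM at pH 6.6, without overlap, a rise of 0.44 ± 0.07 (1.35-fold, edgeR adjusted p = 6.96e-07).

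The interaction for Gsk3a was -0.37 ± 0.09 (edgeR adjusted p = 8.79e-04), and with total count scaling it was -0.14 and not called. IL-2 raised Gsk3a by 0.29 ± 0.07 at pH 7.4 and 0.21 ± 0.07 at pH 7, calls that were both lost with total count scaling (0.13 and 0.09), and the value at pH 6.6 was -0.08 ± 0.07. Exons of 9130221H12Rik lie opposite 28.3% of the exon bases of Gsk3a; this gene changed by 0.01 ± 0.10 at low pH without IL-2 and fell by 0.32 ± 0.10 with IL-2 at pH 7.4.

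Gsk3b (chr16:38089001-38246084, plus strand) had the narrowest relative range of group means, from 110.2 to 138.8 CPM. It was 119, 125, 110, 104 and 92.7 CPM at pH 7.4 and 123, 142, 147, 119 and 122 CPM at pH 6.6 with IL-2. Without IL-2 it was 118, 105, 127, 127 and 115 CPM at pH 7.4 and 139, 156, 141, 114 and 143 CPM at pH 6.6. The groups overlapped in both media, and the rises at pH 6.6, 0.24 ± 0.10 with IL-2 (edgeR adjusted p = 0.0287, 5 of 5 pairs higher) and 0.23 ± 0.10 without it (edgeR adjusted p = 0.045, 4 of 5 pairs higher), stood close to the threshold. The first was lost with the looser filter (0.23) and without replicate 3 or 5, and the second under 8 of the 12 alternatives, among them total count scaling (0.07). No other comparison called Gsk3b; the IL-2 effects were -0.11, 0.01 and -0.09 at pH 7.4, pH 7 and pH 6.6, each with an SE of 0.10. The first of these was called with total count scaling (-0.27, edgeR adjusted p = 0.0152) and without replicate 2 (-0.26, edgeR adjusted p = 0.038).

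Ppp2r5a (chr1:191351975-191403272, minus strand) encodes the B56alpha regulatory subunit that directs PP2A to c-Myc. With IL-2 it was 233, 224, 235, 219 and 228 CPM at pH 7.4 and 268, 286, 340, 263 and 280 CPM at pH 6.6, with no overlap, a rise of 0.34 ± 0.07 (1.26-fold, edgeR adjusted p = 3.93e-05). Without IL-2 it was 321, 341, 321, 341 and 319 CPM at pH 7.4 and 330, 331, 339, 304 and 331 CPM at pH 6.6, a difference of -0.01 ± 0.07; the value was 0.04 with RLE scaling and -0.16, and called, with total count scaling. The interaction was 0.34 ± 0.10 (edgeR adjusted p = 0.00203).

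IL-2 lowered Ppp2r5a by 0.53 ± 0.07 at pH 7.4 and 0.52 ± 0.07 at pH 7 on the log2 scale, with no overlap. At pH 6.6 the difference was -0.19 ± 0.07 (edgeR adjusted p = 0.0412, 4 of 5 pairs lower); this call was lost under 8 of the 12 alternatives, among them leaving out replicate 1, 2, 4 or 5, with values from -0.12 to -0.19. Only 88.9% of the 50-base windows of Ppp2r5a transcripts occur in no other gene, so some of its reads may have gone uncounted.

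The transcript of the target gene, Myc, was 149, 164, 173, 142 and 174 CPM at pH 7.4 with IL-2. It was 136, 129, 133, 109 and 108 CPM at pH 7 and 71.8, 45.9, 46.9, 55.6 and 53.9 CPM at pH 6.6 with IL-2. The groups did not overlap, and relative to pH 7.4 the log2 fold changes were -0.38 ± 0.11 at pH 7 (edgeR adjusted p = 0.0148) and -1.55 ± 0.11 at pH 6.6 (edgeR adjusted p = 6.35e-14). Myc was thus called at pH 7 with IL-2, where none of the 9 regulators was, and the 2 SE intervals of the regulators in that comparison lay between -0.40 (Usp36) and 0.29 (Huwe1), with Skp2 from -0.38 to 0.22. Without replicate 5 the Myc value at pH 7 was -0.31 (edgeR adjusted p = 0.0528). The study had also found less Myc mRNA at pH 6.6 with IL-2, in shorter cultures, which is the same direction as here.

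Without IL-2, Myc was between 12.5 and 32.5 CPM at the 3 pH values and was higher at pH 6.6 compared with pH 7.4 (0.69 ± 0.12, edgeR adjusted p = 6.38e-06). Over the 35 libraries, log2 CPM of Myc correlated with Usp36 (Pearson r = 0.91), Stub1 (0.81), Skp2 (0.78) and Fbxw7 (0.70), and inversely with Usp28 (-0.85), Ppp2r5a (-0.85) and Huwe1 (-0.74). For Gsk3a (0.15) and Gsk3b (-0.27) the values were small. The 35 points fall into 7 groups and share the scaling of each library, so these are descriptions of the group pattern with no test.

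Among the 36 pairs of regulators, r was above 0 in 17 and below 0 in 19. Usp28 and Ppp2r5a were the most alike (r = 0.90), followed by Fbxw7 with Usp36 (0.75), Skp2 with Usp36 (0.74) and Stub1 with Usp36 (0.71), and the most opposed were Usp36 with Ppp2r5a (-0.85), Skp2 with Ppp2r5a (-0.84) and Usp28 with Usp36 (-0.83). Among the 9000 genes whose mean log2 CPM was 3 or more, those with the pattern most like Skp2 over the 35 libraries were Brip1os (r = 0.97), Prim1 (0.97), a subunit of DNA primase, and Tyms (0.96), thymidylate synthase. The most like Huwe1 were Chd8 (0.97), Ep400 (0.95) and Arid1a (0.94). For Usp28 they were Srpk1, Srpk2 and Vps54 (0.97 each), for Usp36 Hmgxb3 and Ctbp1 (0.95 each) and Fasn (0.94), and for Stub1 Siva1 (0.95), Ndufs7 and Pmvk (0.94 each). For Gsk3a they were Ppp2r5d, Sympk and Ctc1 (0.93 to 0.94), for Gsk3b Uhmk1, Lats1 and Ube3a (0.89 to 0.93), for Ppp2r5a Ddx52, Trip4 and Pan3 (0.95 each), and for Fbxw7 Prmt6, Nab1 and Chml (0.86 to 0.91).

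Ratios of 2 regulators within one library do not depend on how libraries are scaled, and 4 of them were compared in 4 comparisons by a two-sided exact permutation test of 5 against 5 libraries, adjusted over the 16 tests; 0.00794 is the smallest p such a test can give. The log2 count ratio of Fbxw7, the ligase component, to Usp28, the deubiquitinase, was 1.01 ± 0.16 (SD, n = 5) at pH 7.4 and 0.09 ± 0.14 at pH 6.6 with IL-2. Without IL-2 the ratio was 0.00 ± 0.20 at pH 7.4 and -0.36 ± 0.10 at pH 6.6. It was lower at pH 6.6 compared with pH 7.4, and lower without IL-2 than with it, in 5 of 5 pairs in all 4 comparisons (exact permutation p = 0.00794, adjusted p = 0.0159 in each).

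The ratio of Fbxw7 to Usp36 went the other way with IL-2. It was -0.41 ± 0.07 at pH 7.4 and 0.03 ± 0.05 at pH 6.6 (exact permutation p = 0.00794, adjusted p = 0.0159, 5 of 5 pairs higher at pH 6.6). Without IL-2 it was 0.21 ± 0.14 and -0.07 ± 0.16, lower at pH 6.6 in 4 of 5 pairs, which did not pass (exact permutation p = 0.0317, adjusted p = 0.0508). The ratio of Skp2 to Fbxw7 fell by 1.87 at pH 6.6 with IL-2 (exact permutation p = 0.00794, adjusted p = 0.0159), and without IL-2 it differed by -0.08 (exact permutation p = 0.794, adjusted p = 0.847). The ratio of Gsk3b to Gsk3a did not pass in any of the 4 comparisons, with differences from -0.40 to 0.17 (exact permutation adjusted p from 0.0508 to 0.944). In all, 8 of the 16 differences passed. This test does not use the replicate numbers; when pairs of the same number were tested by sign flips, which cannot give a p under 0.0625, 0 of the 16 passed (exact adjusted p = 0.1 for each of the 8). Without replicate 2, 3, 4 or 5, where the smallest p is 0.0286, 0 passed as well, with the direction of each of the 8 kept.

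**Figure D4:**
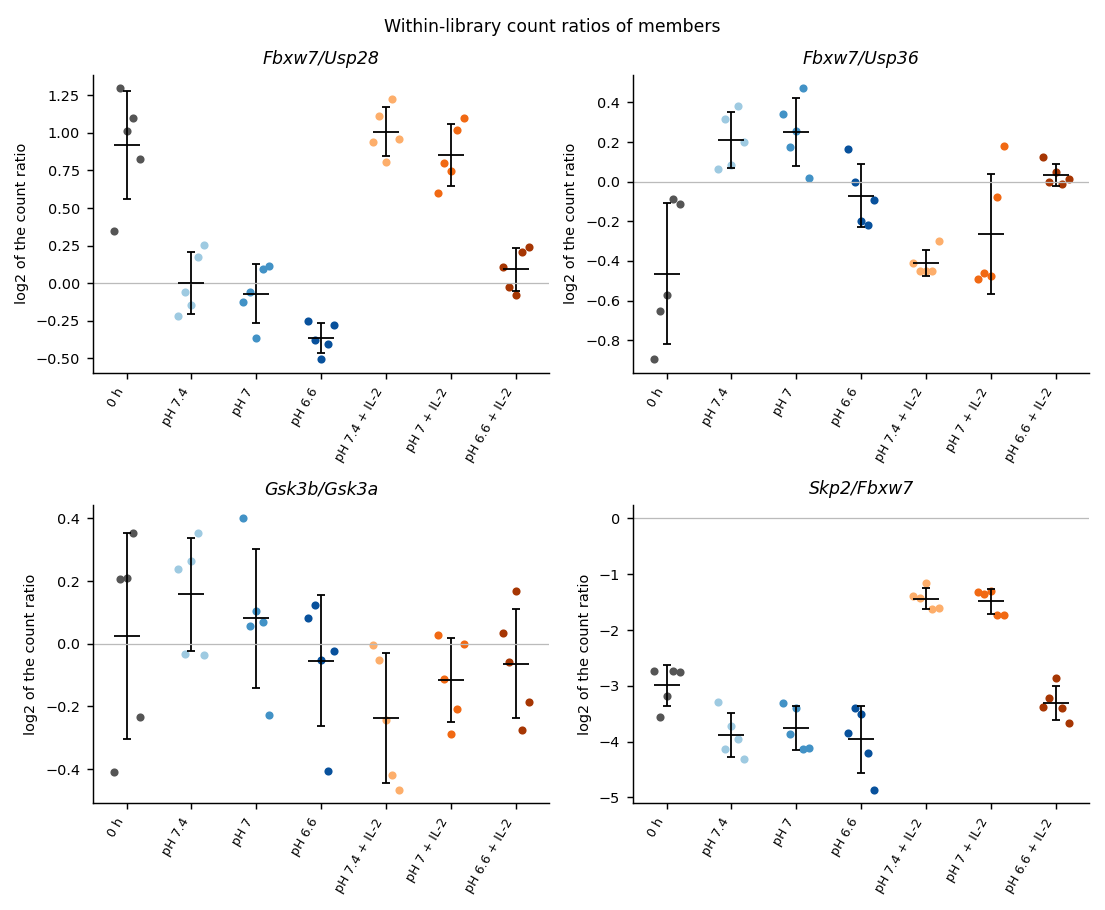
Log2 of the count ratio of 2 regulators within each library (vertical axes, which differ between panels) in the 7 groups, with 1 point per library and the mean ± SD (n = 5). Fbxw7/Usp28 is highest with IL-2 at pH 7.4 among the groups compared (1.01 ± 0.16), where Fbxw7/Usp36 is lowest (-0.41 ± 0.07).

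A further 39 genes of the same process were listed by role, of which 37 were tested and Usp13 and Usp29 did not pass the filter. At pH 6.6 with IL-2, 9 (24.3%) were higher and 21 (56.8%) lower than at pH 7.4, against 35.4% and 40.9% of all genes, and the median log2 fold change was -0.37 against -0.07 over all genes. Without IL-2, 17 (45.9%) were higher and 6 (16.2%) lower, against 31.6% and 35.4% of all genes, with a median of 0.14 against -0.03. IL-2 at pH 7.4 gave 24 (64.9%) higher and 10 (27%) lower, against 39.3% and 41.1% of all genes, with a median of 0.45 against -0.04. At pH 6.6 it gave 4 (10.8%) higher and 5 (13.5%) lower, against 13.2% and 10.6%, with a median of -0.04 in both sets. The interaction was called for 31 of the 37 (83.8%, against 67.0% of all genes), with 8 (21.6%) above and 23 (62.2%) below 0, against 34.3% and 32.8%. After 24 h with IL-2 at pH 7.4, 18 (48.6%) were higher and 7 (18.9%) lower than at 0 h, against 29% and 30.9%. These shares describe the list, and the counts by role below are to be read against the same shares of all genes.

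Skp1, Cul1 and Rbx1 form the core of both SCF ligases, Nedd8 activates cullins, and Cks1b is a partner of Skp2 in binding p27 that Fbxw7 does not need. All 5 were lower at pH 6.6 with IL-2 (40.9% of all genes lower), from -0.44 for Cul1 to -2.79 ± 0.13 for Cks1b (edgeR adjusted p = 1.13e-18). Without IL-2, 2 of the 5 were higher at pH 6.6 and none was lower, with Cks1b at 1.09. Cks1b, a cell cycle gene itself, was thus called higher at low pH without IL-2, where Skp2 was not called (-0.24).

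Of 9 other ligase genes, 5 were higher and 4 lower at pH 6.6 with IL-2, where 76.3% of all genes were called. The largest rise was that of Fbxo32 (3.72 ± 0.13, 13.1-fold, edgeR adjusted p = 1.34e-21), which encodes the F-box protein atrogin-1 known from muscle wasting, and the largest fall was that of Trim32 (-0.57 ± 0.10). Fbxo32 also rose by 0.68 at pH 7 in the presence of IL-2 and by 0.64 at pH 6.6 in its absence, and IL-2 lowered it by 3.60 at pH 7.4 on the log2 scale. Among the 4 deubiquitinases tested, 1 was higher and 2 lower at pH 6.6 with IL-2 (35.4% and 40.9% of all genes). Usp22 was the higher one (0.48 ± 0.06), and the larger fall was that of Usp2 (-1.27 ± 0.26). Usp2 was near the floor, with means of 0.923 CPM at pH 7.4 and 0.378 CPM at pH 6.6. Usp7, named after its values were seen, had means of 300 and 233 CPM in these groups, without overlap.

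Of the 7 other kinases that phosphorylate or stabilize c-Myc, 2 were higher and 4 lower, a share close to the 76.3% called among all genes. Dyrk2, which can prime c-Myc for GSK3, rose most (0.98 ± 0.11), and the mitotic kinase Plk1 fell most (-2.43 ± 0.15) but was 1.93 higher at pH 6.6 without IL-2. Of 12 PP2A subunits, scaffolds and inhibitors, 1 was higher and 6 lower at pH 6.6 with IL-2 (35.4% and 40.9% of all genes), and 7 were higher and 3 lower without IL-2 (31.6% and 35.4%). The gene higher with IL-2 was Ppp2r5c, which encodes another B56 subunit (0.74 ± 0.07), and the largest fall was that of Cip2a (-2.02 ± 0.15), an inhibitor of PP2A that protects c-Myc. Ppp2r5a and Ppp2r5c were both higher at pH 6.6 with IL-2, while the other B56 genes tested, Ppp2r5b, Ppp2r5d and Ppp2r5e, gave -0.07, -0.01 and -0.15 and were not called; these 3 were named after their values were seen.

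**Figure D5:**
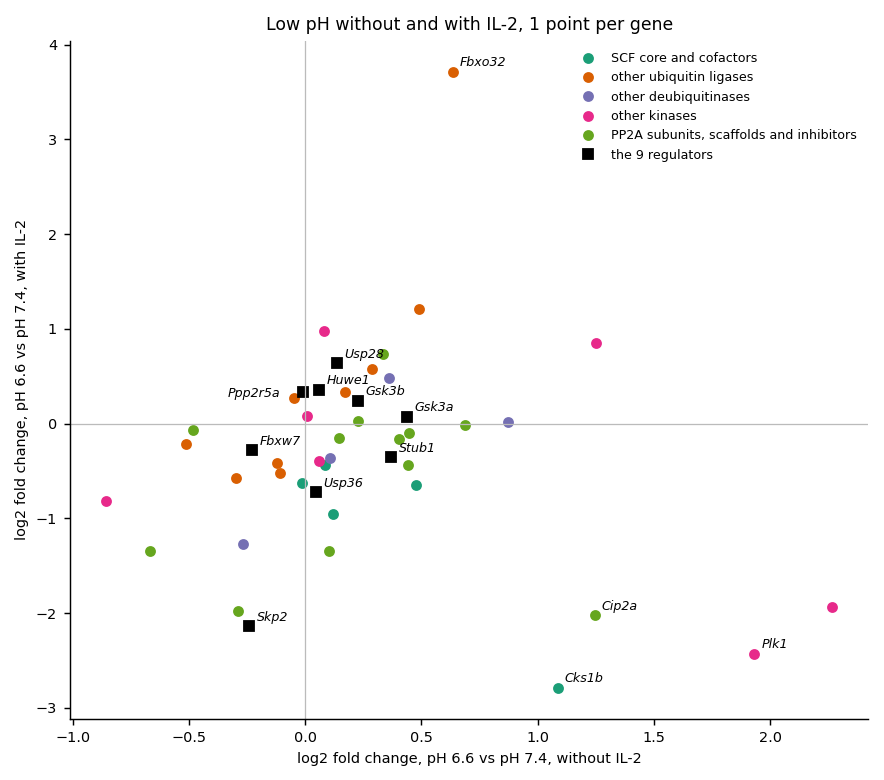
Log2 fold change from pH 7.4 to pH 6.6 without IL-2 (horizontal) and with IL-2 (vertical), with 1 point for each of the 9 regulators (squares) and the 37 other genes tested (circles, coloured by role); the 2 axes share no libraries. Cks1b, Plk1 and Cip2a lie at the lower right, lower with IL-2 and higher without it, whereas Skp2 lies below 0 with IL-2 at -2.14 and near 0 without it at -0.24.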

How the data were processed

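The deposited files, one for each of 35 libraries, hold the number of reads counted by the authors on each of 48709 mouse genes as raw counts without normalization. Stranded libraries of polyadenylated RNA were read as single reads. The submitters' processing notes name cutadapt 1.8, STAR 2.5.2b, HTSeq 0.6.1 and the build GRCm38; the strand setting of the counting, the read length and the annotation release are not given in the sources used here. The 5 closing rows that name no gene, among them reads aligned to several places (32.8% to 48.3%), were left out of library sizes and tests. Symbols were matched for 48349 identifiers. Exon lengths and positions are those of GENCODE M21 (GRCm38), and upstream sequences those of RefSeq (GRCm38.p6).

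The filterByExpr function of edgeR 4.0.16 (R 4.3.3), with a minimum count of 10, left 13819 genes, which were scaled by TMM. A single robust quasi-likelihood model held the 7 groups and, as the study's statistics are paired, the replicate numbers as blocks. Same-numbered libraries deviated together: 96 of 105 pairs had r over 0.1 (median 0.25, against -0.06 for different numbers), and in 2 comparisons (IL-2 at pH 7, and 24 h without IL-2 against 0 h) 4 and 3 of the 5 pairs did. No 2 libraries of a group agreed within sampling noise (lowest chi-square per degree of freedom 6.17). Nothing says whether replicates came from separate animals, so p-values measure the spread between these samples. Ratios used counts plus 0.5 and exact permutation tests. The alternatives were RLE and total count scaling, filters that asked for 1 count in any library or 10 counts in all of them, DESeq2 1.42.0, only the compared groups, no block and leaving out each replicate, and for the ratios a paired test and a prior count of 2.

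The regulators and the other lists were chosen with earlier results of these data known. Named besides them were Myc, in each role of the list of 39 genes the largest rise and fall at pH 6.6 with IL-2 among calls, and for each regulator the 3 genes with the highest correlation.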

Additional observations from a re-analysis of the deposited data

Results flagged for a closer look

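In 70 sets of 5 replicates (9 regulators and Myc in 7 groups), 4 held a library far from the other 4, where the gap to the nearest library divided by the whole range on the log2 scale exceeded 0.71; chance flags about 1 in 20 sets. Huwe1 at 0 h was 208 CPM in replicate 5 against 433 to 555 CPM in the others (gap 0.746 of the range). Usp28 at pH 7 with IL-2 was 36.6 CPM in replicate 1 against 27.7 to 29.2 CPM (0.806). Ppp2r5a at pH 6.6 without IL-2 was 304 CPM in replicate 4 against 330 to 339 CPM (0.75). Myc at 0 h was 178 CPM in replicate 4 against 240 to 260 CPM (0.79).

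For 6 of the 9 regulators, the change at pH 6.6 was not the same in the 2 media, with and without IL-2, by the interaction in edgeR's fit, which called 67.0% of all genes. On the log2 scale the difference was -1.90 for Skp2, -0.77 for Usp36, -0.725 for Stub1 and -0.37 for Gsk3a, and it was 0.50 for Usp28 and 0.34 for Ppp2r5a. For Myc it was -2.24.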

How the results depend on the processing

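The 9 regulators had 47 calls over the 10 comparisons, and with 12 alternatives each these gave 564 values, of which 523 kept their direction and call, 41 kept the direction and lost the call, and 0 changed direction. Of the values that were not called, 462 stayed so with their direction, 15 gained a call and 39 changed direction without one. The number of regulators called was within 1.5 times the reported one under every alternative in 7 comparisons. It was 1 with total count scaling in place of 0 at pH 7 with IL-2, 2 to 4 without 1 replicate in place of 4 at pH 6.6 without IL-2, and 1 to 3 in place of 3 for IL-2 at pH 6.6. Relative to TMM, total count scaling moved the median change over all genes, on the log2 scale, by -0.15 at pH 6.6 without IL-2, by -0.16 and -0.12 for IL-2 at pH 7.4 and pH 7, and by 0.23 in the interaction. Calls not described above that were lost without 1 replicate were those of Fbxw7 (without 1 or 2) for IL-2 at pH 7.4, Gsk3a (without 1 or 2) for IL-2 at pH 7, Usp28 (without 2) for IL-2 at pH 6.6, Huwe1 (without 1) at 24 h with IL-2 against 0 h and Fbxw7 (without 2) at 24 h without IL-2 against 0 h; Stub1 (without 1) at 24 h with IL-2 against 0 h gained one (0.238). Other calls gained and not described above were those of Usp28 at 24 h with IL-2 against 0 h with total count scaling (-0.175) and Fbxw7 for IL-2 at pH 6.6 when only the compared groups were fitted (0.237).

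Without the replicate block, 1660 of all genes were called in place of 2623 at pH 7 with IL-2 and 56 in place of 232 at pH 7 without it, and among the regulators 2 calls were lost, Gsk3b at pH 6.6 without IL-2 and Ppp2r5a for IL-2 at pH 6.6. A fit of only the compared groups called 4397 and 926 genes at pH 7, and 5494 in place of 3278 for IL-2 at pH 6.6, where it called 16 of the other 37 genes in place of 9. Without 1 replicate the counts over all genes were 1283 to 2425 and 35 to 332 at pH 7 with and without IL-2 and 2119 to 2630 for IL-2 at pH 6.6, and those of the 37 genes were 5 to 12 in place of 11 and 1 to 4 in place of 4 at pH 7. With pairs of the same number, the sign-flip test cannot give a p under 0.0625, and 0 of the 16 ratios passed in place of 8. Without 1 replicate it was 0 to 10. There 4 against 4 libraries allow no smaller p than 0.0286, and ratios at that p passed or failed together, depending on how many of the 16 reached it. These counts therefore do not tell single ratios apart. The cause of the other shifts was not tested.

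The values that changed sign, none of them called, were with total count scaling 0.017 for Fbxw7 at pH 7 with IL-2, -0.090, -0.015 and -0.105 for Huwe1, Usp28 and Usp36 at pH 6.6 without IL-2, -0.104 for Gsk3b with IL-2 at pH 7, 0.043 for Stub1 with IL-2 at pH 6.6, 0.178 for Fbxw7 in the interaction and 0.040 for Gsk3a at 24 h without IL-2 against 0 h. Ppp2r5a at pH 6.6 without IL-2 was 0.035 with RLE scaling and DESeq2. With the stricter filter, Gsk3b with IL-2 at pH 7 was -0.024 and Fbxw7 in the interaction 0.004, and with only the compared groups Stub1 with IL-2 at pH 6.6 was 0.010 and Fbxw7 in the interaction 0.053. Without 1 replicate the ranges were -0.006 to 0.069 (Huwe1) and -0.016 to 0.093 (Gsk3b) at pH 7 with IL-2, -0.004 to 0.091 (Skp2) and -0.015 to 0.033 (Gsk3a) at pH 7 without it, and -0.016 to 0.108 (Huwe1), -0.012 to 0.085 (Usp36) and -0.049 to 0.031 (Ppp2r5a) at pH 6.6 without it. For IL-2 they were -0.071 to 0.045 (Gsk3b) at pH 7 and -0.033 to 0.003 (Stub1) at pH 6.6, and in the interaction -0.115 to 0.106 (Fbxw7) and -0.076 to 0.214 (Gsk3b). Against 0 h they were -0.169 to 0.041 (Fbxw7) and -0.164 to 0.031 (Gsk3b) with IL-2, and -0.115 to 0.041 (Gsk3a) and -0.006 to 0.233 (Gsk3b) without it. The ratios ranged from -0.066 to 0.034 (Gsk3b to Gsk3a, IL-2 at pH 6.6) and from -0.284 to 0.039 (Skp2 to Fbxw7, pH 6.6 without IL-2).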
